A study of Homo sapiens with 40 samples.

Results

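The mRNAs of 32 splicing regulators were followed across 12 groups of HEK293 RNA-Seq libraries: 12 SR proteins (SRSF1 to SRSF12), the 2 transformer 2 proteins (TRA2A and TRA2B) and 18 heterogeneous nuclear ribonucleoproteins (hnRNPs). Members were chosen by gene symbol, and all 32 were found among the 55765 symbols of the count tables. HEK293 is an established human embryonic kidney cell line. In 12 libraries, native complexes with no crosslinking were immunoprecipitated (IP) with antibodies to the endogenous DEAD-box helicases eIF4A1, eIF4A2 or DDX6, and both the IP RNA and total RNA of the lysates were sequenced (RIP-Seq, 3 libraries each). In 24 libraries, cells had received a control siRNA or a CNOT1 siRNA, which depletes the scaffold of the CCR4-NOT deadenylase complex. Their cytoplasmic lysates, made with cycloheximide after removal of the nuclei, were parted on sucrose gradients into subpolysomal RNA (fractions 1 to 5) and polysomal RNA (fractions 6 to 11). The input and both pools were sequenced with 4 libraries per siRNA. A further 4 libraries compared a control siRNA with siRNAs to TNRC6A and TNRC6B, 2 GW182 proteins, which link Argonaute and CCR4-NOT (2 libraries each). All libraries came from 1 cell line, siRNA knockdown leaves part of the target in place, and a control immunoprecipitation without a specific antibody was not analysed here.

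SR proteins bind short, often purine-rich, RNA elements through RNA recognition motifs and recruit the splicing machinery through an arginine- and serine-rich domain, while hnRNPs coat nascent transcripts and often oppose exon inclusion. Many of these proteins shuttle to the cytoplasm, where they also act on export, translation and decay of mRNAs. Their own genes hold ultraconserved elements whose splicing gives transcripts with a premature stop codon, a route of autoregulation through nonsense-mediated decay. The counts were summed per gene, so coding and premature-stop transcripts of a member could not be told apart. In bulk RNA, a lower level per cell and fewer cells holding an mRNA cannot be told apart either.

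Library totals ran from 15353317 to 46018900 counts, and all 32 members passed the filter on low counts in each of the 3 experiments. Levels are given as CPM, the counts of a gene scaled to a common library total by the trimmed mean of M values, so each value is relative to the other mRNAs of its library. The labelled cell line was checked against 7 markers (NEFM, NEFL, INA, VIM, KRT8, KRT18 and PAX2), all of them detected, which in RIP total RNA ran from 0.87 CPM for PAX2 to 4429 CPM for NEFM. Markers of other cell types (ALB, APOA1, HBG1, PTPRC, TYR and MLANA) were nearly absent, with a sum of at most 0.545 CPM in any library and 2 of the 6 at 0 throughout. The targeted gene CNOT1 was lower after its siRNA in input RNA, at 36.8 to 41.4 CPM against 628 to 711 CPM, and in subpolysomal RNA, at 73.5 to 89.6 CPM against 235 to 317 CPM. In polysomal RNA it went against 2 labels: the library labelled control siRNA replicate 3 held 28.3 CPM of CNOT1 and the library labelled CNOT1 siRNA replicate 3 held 631 CPM. The other polysomal libraries held 470 to 501 CPM with control siRNA and 24.01 to 31.7 CPM with CNOT1 siRNA. Counts of called members that rest on polysomal RNA were therefore also computed without both of these libraries. TNRC6A measured 178 and 189 CPM with control siRNA and 40.5 and 64.7 CPM with TNRC6A/B siRNA, and TNRC6B 67.6 and 73.1 CPM against 17.7 and 26.3 CPM, without overlap, although neither passed the test with 2 libraries per group.

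The 32 mRNAs covered a wide range of levels. Per kb of mRNA in RIP total RNA, HNRNPA2B1, a shuttling protein that takes part in mRNA transport, stood first at 728 ± 57.4 CPM per kb (SD, n = 3), ahead of the splicing repressor HNRNPA1 at 581 ± 61.0 CPM per kb. Next came the poly(C)-binding HNRNPK at 447 ± 49.4, the nascent transcript-binding HNRNPC at 403 ± 46.0 and the G-run-binding HNRNPH1 at 393 ± 8.12 CPM per kb, 3 neighbours that lay within their spread of each other. The SR protein mRNA with the highest mean per kb was SRSF2 (SC35), at 274 ± 37.6 CPM per kb, but it overlapped with SRSF9 at 239 ± 39.7 CPM per kb. HNRNPUL2 at 8.61 ± 0.281 and SRSF12 at 8.26 ± 0.928 CPM per kb closed the order and overlapped. All members together took 1.75 to 1.84% of the counts in RIP total RNA and 1.16 to 1.34% in the 9 IP libraries. In control siRNA cells they took 1.94 to 1.97% of the input, 1.16 to 1.38% of the subpolysomal and 1.81 to 2.16% of the polysomal counts (1.93 to 2.16% without the library labelled replicate 3), without a test of these shares.

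Purine-rich mRNAs were part of the choice of this list, so its purine content is a description and no finding. Set against all genes, this content was higher in the coding sequence and not in the 5′UTR. In the reference transcripts, 8 purine tetramers (AAGA or AGAA or GAAA or GAGA or AGAG or GGAA or AAAA or GAAG), counted on the mRNA strand without overlap, occurred at a median of 3.79 per 100 nt of coding sequence in the members against 2.88 over all genes, and 26 of 32 members lay above the median of all genes. The median purine content of the coding sequences was 56.5% in the members and 52.0% over all genes. In 5′UTRs the order turned, with 1.63 tetramers per 100 nt in the members against 1.85, and 12 of 31 members above the median of all genes. Of the 29 members with a 5′UTR of 30 nt or more, 12 (41.4%) held a tetramer in the 30 nt before the start codon, against 47.8% of 15951 genes. The densest 30-nt window of the coding sequence held 5 or more tetramers in 10 of 32 members (31.2%), against 23.4% of 17746 genes. The windows of the members that the results turn on are printed 5′ to 3′ on the mRNA strand from the GRCh37 genome, with bases inside a tetramer in capitals. The 30 nt before the start codon were, for HNRNPU (chr1:245027610-245027639, minus strand), SRSF9 (chr12:120907413-120907442, minus strand), SRSF6 (chr20:42086644-42086673, plus strand) and HNRNPA2B1 (chr7:26240198-26240227, minus strand):
HNRNPU: agcgcctagcggtgaatcggggccctcacc
SRSF9: gcggcgggcccgcggcgtcgggcggtgcgg
SRSF6: ccagcccttgggtccccgcccgccacggac
HNRNPA2B1: GGAAatcgggctGAAGcgactgagtccgcg
The densest coding windows were, for HNRNPU (chr1:245025997-245026026, minus strand), HNRNPM (chr19:8520304-8520333, plus strand), HNRNPA3 (chr2:178080835-178080864, plus strand), SRSF6 (chr20:42089378-42089407, plus strand) and SRSF10 (chr1:24297731-24297760, minus strand):
HNRNPU: gcAAAAcAGAAcAGAAaggcgGAGAtAAAA
HNRNPM: tgctcAGAAtGAGAAGAGGAAGGAGAAAAA
HNRNPA3: atGGAAgacaggcAGAGtGGAAAAAAGAGA
SRSF6: gatcAAAAggcaGGAAatctagatcaAAGA
SRSF10: tcAAGAtatGAAAaGGAAtcaaGGAAAAAA
The windows of HNRNPU, SRSF9 and SRSF6 before the start codon held none of these tetramers, whereas the coding windows of HNRNPU, HNRNPM, HNRNPA3 and SRSF10 lay mostly inside them. These matches describe the sequence and are no evidence of binding.

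The first question was which of these mRNAs came down with the helicases eIF4A1, eIF4A2 and DDX6. Most members were less abundant in the IPs than in total RNA, the hnRNPs in particular, and only a few SR protein mRNAs were more abundant. In the eIF4A1 IP 21 of 32 members were lower and 2 were higher, at a false discovery rate (FDR) below 0.05 in edgeR's quasi-likelihood test, where 26.5% of all genes were called lower and 26.1% higher. In the IP of eIF4A2 19 members were lower and 2 higher (background 25.8% lower and 24.5% higher), and in the DDX6 IP 20 were lower and 2 higher (background 23.3% and 22.7%). The median log2 difference of the members was -0.68, -0.81 and -0.64 in the eIF4A1, eIF4A2 and DDX6 IPs, against 0.04, 0.01 and 0.01 over all genes tested. Of the 18 hnRNPs 15, 15 and 13 were lower in the 3 IPs and none was higher, with medians of -0.87, -1.02 and -0.69. Of the 14 SR and transformer 2 mRNAs 6, 4 and 7 were lower and 2 were higher each time, with medians of -0.44, -0.22 and -0.41. The 3 comparisons share the total RNA libraries and are not independent of each other.

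The largest deficit in each IP belonged to HNRNPU (chromosome 1: 245003940 to 245027862), which binds chromatin and the nuclear matrix. It measured 1248, 1328 and 1163 CPM in total RNA, 215, 326 and 294 CPM in the eIF4A1 IP, 374, 332 and 163 CPM in the eIF4A2 IP, and 463, 396 and 310 CPM in the DDX6 IP. Every IP library lay far below every library of total RNA. The log2 difference was -2.16 (SE 0.277, FDR 3.47e-05) in the eIF4A1 IP, which placed HNRNPU at percentile 1.85 of all genes tested, and -2.11 and -1.68 in the eIF4A2 and DDX6 IPs. HNRNPM, a binder of GU-rich RNA, measured 738, 848 and 550 CPM in total RNA, 217, 207 and 219 CPM in the eIF4A1 IP, 211, 158 and 185 CPM in the eIF4A2 IP and 275, 212 and 257 CPM in the DDX6 IP. Its groups did not overlap with total RNA either, with log2 differences of -1.73 (SE 0.179), -1.95 (SE 0.181) and -1.52 (SE 0.178). HNRNPA3, a close relative of HNRNPA1, measured 1162, 1316 and 1093 CPM in total RNA and 361 to 543 CPM over all IP libraries, with log2 differences of -1.64, -1.46 and -1.21. Among SR proteins SRSF1 (SF2/ASF), the founding member of the family, was also lower, with log2 differences of -1.21, -1.05 and -0.98 in the eIF4A1, eIF4A2 and DDX6 IPs.

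By family, 5 of the 6 hnRNP A/B and D mRNAs, 3 of the 4 F/H mRNAs and 2 of the 3 U mRNAs were lower in each of the 3 IPs. The exceptions were HNRNPA0, which binds AU-rich elements (0.12, 0.00 and -0.12 on the log2 scale in the eIF4A1, eIF4A2 and DDX6 IPs), HNRNPH1 (-0.27, -0.05 and -0.34) and HNRNPUL1, a relative of HNRNPU (-0.13, -0.49 and 0.00), none of which passed the test. With the replicate number as a block, HNRNPH1 passed in the DDX6 IP (-0.34, FDR 0.0209) and HNRNPUL1 in the eIF4A2 IP (-0.60, FDR 0.0484). DESeq2, without the block, called HNRNPH1 lower in the eIF4A1 and DDX6 IPs (FDR 0.0419 and 0.0151). HNRNPC (-0.96, -1.04 and -0.85), HNRNPH2 (-0.73, -0.96 and -0.64), HNRNPH3 (-0.91, -0.96 and -0.70) and HNRNPUL2 (-0.82, -0.89 and -0.65) were lower throughout. HNRNPL, which binds CA repeats, was lower in the eIF4A1 and eIF4A2 IPs (-0.49 and -0.61). In the DDX6 IP edgeR did not call it without the block (-0.35). It was called there with the block (-0.34, FDR 0.0324) and by DESeq2 (FDR 0.0277). The same held for HNRNPR in the DDX6 IP (-0.34, FDR 0.0257 with the block and 0.013 by DESeq2). Of the transformer 2 pair, TRA2B was lower in every IP (-0.92, -0.86 and -0.64), whereas TRA2A was called in none (0.24, 0.10 and 0.17), although it passed in the eIF4A1 IP with the block (0.24, FDR 0.0337). SRSF3 (-1.04, -1.09 and -0.90) and SRSF7 (-0.96, -0.585 and -0.74) were lower in all 3, while SRSF2 (-0.39, -0.38 and -0.40) and SRSF4 (-0.48, -0.69 and -0.43) did not pass edgeR's test in any without the block. With it SRSF2 was lower in the eIF4A1, eIF4A2 and DDX6 IPs (FDR 0.0205, 0.0239 and 0.0211), as by DESeq2 (FDR 0.0332, 0.048 and 0.0411), and SRSF4 was lower in the eIF4A2 IP (-0.75, FDR 0.00581; DESeq2 FDR 0.0435). SRSF6 (-0.57 and -0.65) and SRSF11 (-0.62 and -0.58) were lower in the eIF4A1 and DDX6 IPs. SRSF10 was lower in the DDX6 IP (-0.36) and, with the block (-0.30, FDR 0.0169) or by DESeq2 (FDR 0.0312), in the eIF4A1 IP. SRSF12 was called in none, and with the block it was higher in the eIF4A1 and DDX6 IPs (0.345 and 0.37, FDR 0.0163 and 0.0123).

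A few SR protein mRNAs lay above total RNA. SRSF9 (SRp30c) measured 273, 322 and 231 CPM in total RNA, 393, 643 and 438 CPM in the eIF4A1 IP, 297, 468 and 386 CPM in the eIF4A2 IP and 532, 775 and 541 CPM in the DDX6 IP. Its eIF4A1 and DDX6 IP libraries were all above total RNA, while the eIF4A2 IP overlapped with it. The log2 difference was 1.16 (SE 0.234, FDR 0.00138) in the DDX6 IP, at percentile 94.3 of all genes, and 0.83 (SE 0.232, FDR 0.0086) in the eIF4A1 IP, where the call was lost without eIF4A1 IP replicate 2 (0.58, FDR 0.0551). In the eIF4A2 IP it was 0.48 (FDR 0.102), and with the replicate number as a block it was 0.46 (FDR 0.006). On the opposite strand GATC covers 43.6% of the exons of SRSF9. SRSF8, a retroposed copy of SRSF2, measured 67.8, 77.5 and 58.2 CPM in total RNA and 83.4 to 105 CPM over the 9 IP libraries, without overlap. Its log2 differences were 0.48, 0.44 and 0.45 (FDR 0.0116, 0.0185 and 0.0183), but reads shared with SRSF2 could have been lost in counting and the calls did not hold without some single libraries, with FDR up to 0.0899. SRSF5 (SRp40), which holds 2 RNA recognition motifs, was called higher in the eIF4A2 IP and was not called in the eIF4A1 or DDX6 IP. It measured 351, 348 and 535 CPM in the eIF4A2 IP against 275, 281 and 304 CPM in total RNA, without overlap. Its log2 difference of 0.52 (SE 0.162, FDR 0.0162) was 0.29 (FDR 0.0859) without eIF4A2 IP replicate 3, the highest of the 3 libraries, and the call was also lost without total RNA replicate 1 (0.49, FDR 0.0573) or replicate 2 (0.51, FDR 0.0501).

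With the replicate number as a block, 27 members were called in the eIF4A1 IP (4 of them higher; background 64.5% in either direction), 25 in the eIF4A2 IP (3 higher; background 62.4%) and 27 in the DDX6 IP (3 higher; background 60.0%). Of the 7 markers of the cell line 6 were also lower in each IP (background 26.5%, 25.8% and 23.3% lower). Among these 6, VIM had log2 differences of -1.77, -1.94 and -1.67 in the eIF4A1, eIF4A2 and DDX6 IPs. NEFM had -2.59, -2.51 and -2.01 and KRT18 had -2.46, -2.57 and -2.01. The part of the markers in the result was not tested.

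**Figure D1:**
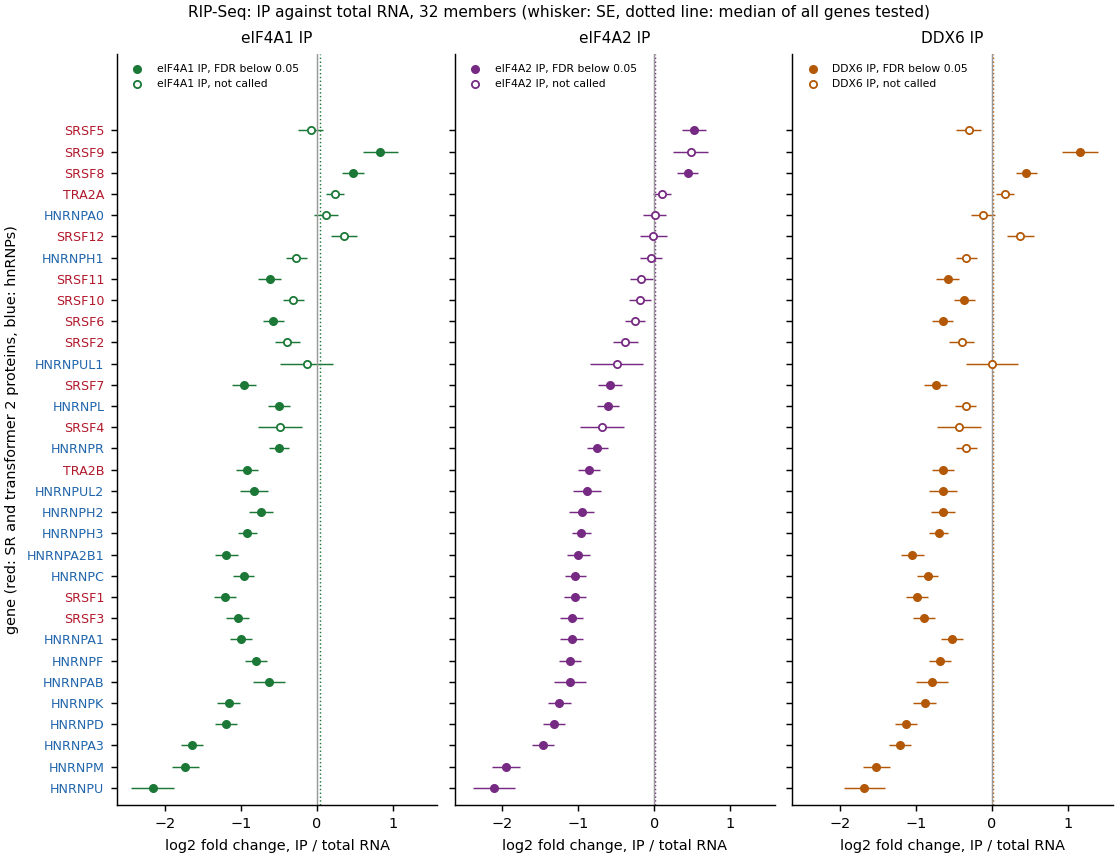
Log2 difference of each member between the eIF4A1, eIF4A2 or DDX6 IP and RIP total RNA (horizontal axis, log2 scale; 1 row per gene, ordered by the eIF4A2 IP; points are edgeR estimates, whiskers their SE, the dotted line the median of all genes tested). The hnRNPs lie mostly to the left, down to HNRNPU at -2.16, and SRSF9 and SRSF8 lie to the right of 0 in all 3 panels.

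**Figure D2:**
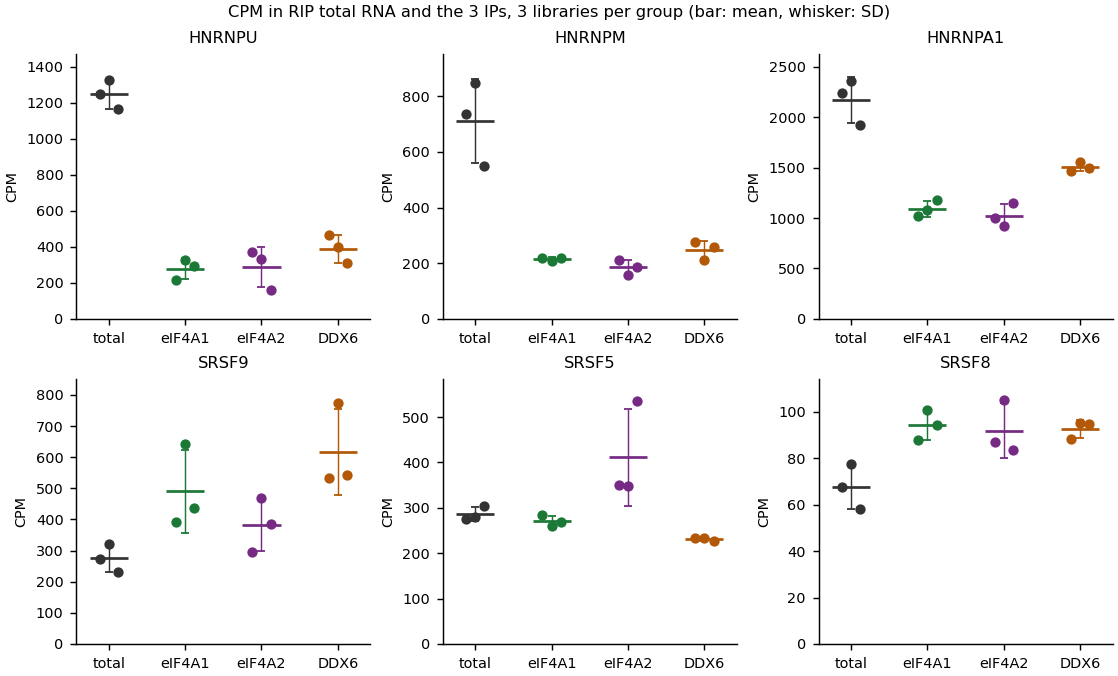
Level of 6 members in each RIP-Seq library (vertical axis, CPM; 1 point per library, 3 per group; groups are the 3 IPs and RIP total RNA). HNRNPU, HNRNPM and HNRNPA1 are highest in total RNA, while SRSF9 reaches 775 CPM in the DDX6 IP and SRSF5 reaches 535 CPM in the eIF4A2 IP.

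A direct comparison asked whether the paralogues eIF4A1 and eIF4A2 carried different members. No member was called between the eIF4A2 and eIF4A1 IPs by edgeR (background 0.973% higher and 0.0858% lower). An unadjusted p below 0.05 was reached by 5 members and, of all 17474 genes tested, by 1647 higher and 1469 lower. With the replicate number as a block, 2 members were higher and 2 lower (background 7.12% and 8.70%): SRSF5 (0.59, FDR 0.0153) and SRSF11 (0.46, FDR 0.0317) in the eIF4A2 IP, and HNRNPAB (-0.51, FDR 0.0175) and SRSF12 (-0.37, FDR 0.0422) in the eIF4A1 IP. DESeq2 called SRSF5 and SRSF11 (background 3.10% higher and 0.910% lower). The SR kinases CLK1 and CLK4, which phosphorylate the arginine- and serine-rich domain, were both higher in the eIF4A2 IP than in the eIF4A1 IP, each by 0.95 on the log2 scale (FDR 0.0113).

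Between the eIF4A2 and DDX6 IPs 3 members were called, 1 higher and 2 lower in the eIF4A2 IP (background 9.82% higher and 11.3% lower). SRSF5 measured 351, 348 and 535 CPM in the eIF4A2 IP and 234, 234 and 226 CPM in the DDX6 IP, without overlap, a log2 difference of 0.83 (SE 0.16, FDR 0.0052). HNRNPA1 measured 999, 925 and 1145 CPM in the eIF4A2 IP and 1470, 1560 and 1496 CPM in the DDX6 IP, again without overlap, a log2 difference of -0.56 (SE 0.15, FDR 0.02). HNRNPR, a relative of SYNCRIP, measured 374, 356 and 363 CPM against 514, 438 and 500 CPM, a log2 difference of -0.41 (SE 0.14, FDR 0.048). The number of calls was 1 without eIF4A2 IP replicate 1 or without DDX6 IP replicate 2, and up to 4 without another library. HNRNPR was lost without any 1 of the 6 libraries, with FDR from 0.0631 to 0.134, and HNRNPA1 without eIF4A2 IP replicate 1 (FDR 0.0719) or replicate 2 (FDR 0.0608) or DDX6 IP replicate 2 (FDR 0.0623). With the replicate block 11 members were called, 3 higher and 8 lower (background 40.5% in either direction), with SRSF6 and SRSF11 added on the higher side and SRSF9, SRSF12, HNRNPAB, HNRNPF, HNRNPK and HNRNPM on the lower side, and DESeq2 called 3 and 5 (background 11.9% and 13.6%). Between the DDX6 and eIF4A1 IPs edgeR called no member (background 0.0801% higher and 0.0114% lower). An unadjusted p below 0.05 was reached by 2 members and, of all 17474 genes tested, by 1341 higher and 1097 lower. The replicate block (background 6.08% and 3.82%) and DESeq2 (background 2.90% and 1.47%) each called 2 members higher in the DDX6 IP, HNRNPA1 and HNRNPA3.

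The gradients of control siRNA cells asked where the members' mRNAs lay without knockdown. Nearly all hnRNP mRNAs were on the polysomal side, while the SR protein mRNAs went both ways. The difference between the families was not tested. Of 32 members 21 were more abundant in polysomal RNA and 7 in subpolysomal RNA (background 29.3% and 34.6%), with a median log2 difference of 0.96 against -0.07 over all genes tested. Of the 18 hnRNPs 16 were higher in polysomal RNA and 1, HNRNPH1, in subpolysomal RNA. Of the 14 SR and transformer 2 mRNAs 5 were higher in polysomal and 6 in subpolysomal RNA. When both polysomal libraries of replicate 3 were left out, 28 members were called (background 66.0% in either direction), again 21 and 7.

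On the polysomal side, HNRNPD (AUF1), which binds AU-rich elements, measured 206, 242, 184 and 199 CPM in subpolysomal and 823, 1010, 719 and 884 CPM in polysomal RNA. The groups lay far apart, with a log2 difference of 2.01 (SE 0.161, FDR 1.55e-06) at percentile 98.5 of all genes, and 2.11 without the polysomal libraries of replicate 3. HNRNPK measured 324, 391, 274 and 304 CPM against 1195, 1408, 1211 and 1316 CPM, a log2 difference of 1.95 (SE 0.152). HNRNPU measured 343, 367, 265 and 270 CPM against 940, 1018, 1383 and 1028 CPM, a log2 difference of 1.77 (SE 0.161), and its 1383 CPM belonged to the library labelled replicate 3. Among SR proteins the mRNAs of SRSF3 (1.10), the export adaptor, SRSF4 (1.07), SRSF1 (1.05) and SRSF9 (0.79) were on the polysomal side, with TRA2B (0.47), an activator of exons with GAA repeats.

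On the subpolysomal side, SRSF6 (SRp55; chromosome 20: 42086533 to 42094686) measured 998, 916, 782 and 926 CPM in subpolysomal and 271, 306, 265 and 342 CPM in polysomal RNA. The groups did not overlap, with a log2 difference of -1.65 (SE 0.153, FDR 4.14e-06). SRSF10, which acts as a splicing repressor when dephosphorylated, measured 777, 795, 606 and 770 CPM against 305, 313, 245 and 316 CPM, a log2 difference of -1.36 (SE 0.155, FDR 1.72e-05). SRSF11 measured 646, 575, 516 and 486 CPM against 285, 318, 282 and 319 CPM, a log2 difference of -0.92 (SE 0.14). SRSF5 (-0.71), SRSF12 (-0.65) and SRSF2 (-0.52) were lower in polysomal RNA as well. HNRNPH1 (-0.36, FDR 0.041) lost its call in DESeq2 (FDR 0.0887) and with the replicate number as a block (-0.37, FDR 0.0721). HNRNPA1 was the hnRNP called on neither side, with a log2 difference of -0.07. The other hnRNPs on the polysomal side ran from HNRNPL (0.60), HNRNPH3 (0.86) and HNRNPUL1 (0.86) through HNRNPA0, HNRNPR (1.12), HNRNPA3, HNRNPH2 (1.25), HNRNPC (1.49), HNRNPF (1.51) and HNRNPAB (1.65) to HNRNPA2B1 (1.68), HNRNPUL2 (1.68) and HNRNPM (1.74). SRSF7, SRSF8 and TRA2A passed on neither side (-0.185, -0.185 and 0.22).

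**Figure D3:**
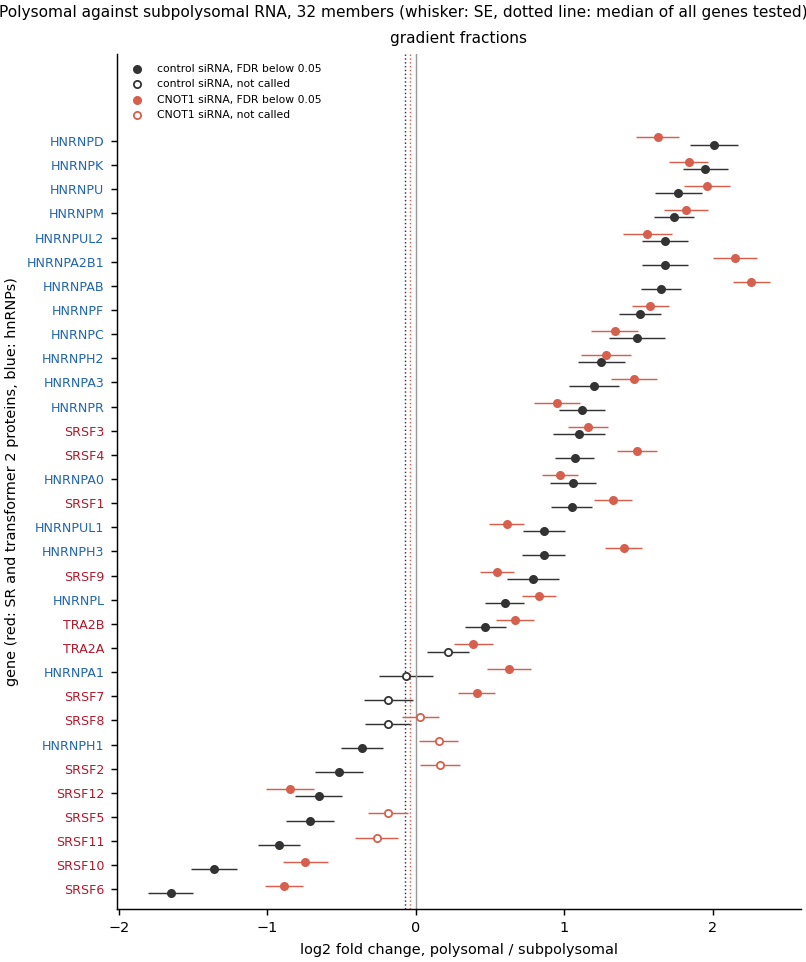
Log2 difference of each member between polysomal and subpolysomal RNA in control siRNA and CNOT1 siRNA cells (horizontal axis, log2 scale; points are edgeR estimates, coloured by siRNA, whiskers their SE, the dotted lines the medians of all genes tested). Most hnRNPs lie to the right of 0, up to HNRNPD at 2.01 with control siRNA and HNRNPAB at 2.26 with CNOT1 siRNA, and SRSF6 and SRSF10 lie to the left with both siRNAs.

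IP and gradient values come from separate libraries and could be set side by side across genes. Over the 32 members the log2 difference of an IP from total RNA ran against the polysomal log2 difference in control siRNA cells, with Spearman's rho of -0.63 for eIF4A1, -0.78 for eIF4A2 and -0.64 for DDX6. Over 16272 genes tested in both experiments rho was -0.26, -0.38 and -0.20. Within the 18 hnRNPs rho was -0.64, -0.69 and -0.76, and within the 14 SR and transformer 2 mRNAs it was -0.27, -0.48 and -0.22. Without both polysomal libraries of replicate 3, an alternative chosen after seeing the data, rho over the 32 members was -0.635, -0.777 and -0.65. Genes share libraries and are not independent replicates, so these values are a description. The tetramer density of the coding sequence ran against the IP log2 difference from total RNA in the members (rho -0.38, -0.30 and -0.40). Over all genes rho was weaker in each IP, at -0.32, -0.24 and -0.23. For the eIF4A2 IP against the eIF4A1 IP the sign was positive, with rho of 0.24 in the members and 0.16 over all genes. It was 0.09 and -0.10 for eIF4A2 against DDX6, and 0.08 and 0.33 for DDX6 against eIF4A1.

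In the gradients of CNOT1 siRNA cells more members of each family were called in polysomal than in subpolysomal RNA. There 24 members were higher in polysomal and 3 in subpolysomal RNA (background 31.7% and 34.1%), with a median log2 difference of 0.96 against -0.04 over all genes. Of the hnRNPs 17 of 18 were higher in polysomal RNA, and of the SR and transformer 2 mRNAs 7 were higher and 3 lower. HNRNPAB measured 135, 142, 134 and 134 CPM in subpolysomal and 678, 754, 560 and 683 CPM in polysomal RNA, a log2 difference of 2.26 (SE 0.123, FDR 1.93e-08). HNRNPA2B1 measured 620, 652, 515 and 497 CPM against 2377, 2458, 3168 and 2372 CPM, a log2 difference of 2.15 (SE 0.15). In both genes the groups were separate, and the 3168 CPM belonged to the library labelled replicate 3. The 3 members on the subpolysomal side were SRSF6 (-0.885, FDR 3.42e-05), SRSF12 (-0.84) and SRSF10 (-0.74). When both polysomal libraries of replicate 3 were left out, 28 members were called (background 69.6% in either direction), 24 and 4, with SRSF11 (-0.365, FDR 0.0109) added.

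The knockdown in input RNA asked how the levels of these mRNAs differed once CNOT1 was depleted. Of 32 members 25 were lower after CNOT1 siRNA and 2 higher (background 28.2% lower and 29.8% higher), with a median log2 change of -0.26 against -0.01 over all genes. The decrease spanned both families, with 11 of 14 SR and transformer 2 mRNAs and 14 of 18 hnRNPs lower. HNRNPA1 fell from 2407, 2362, 2402 and 2415 CPM to 1676, 1718, 1563 and 1564 CPM. The groups did not overlap, with a log2 change of -0.54 (SE 0.0515, FDR 3.17e-07) at percentile 14.4 of all genes. HNRNPA3 fell from 1315, 1311, 1241 and 1277 CPM to 932, 930, 853 and 824 CPM, a log2 change of -0.52 (SE 0.0538). SRSF10 fell from 349, 374, 374 and 380 CPM to 254, 259, 255 and 254 CPM, a log2 change of -0.51 (SE 0.0504), again without overlap. The members called in neither direction were SRSF1 (-0.10), SRSF12 (-0.02), HNRNPA0 (-0.105), HNRNPAB (0.11) and HNRNPU (0.09).

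The 2 members that rose did so by little. SRSF4 (SRp75) rose from 208, 232, 204 and 204 CPM to 250, 285, 243 and 241 CPM, a log2 change of 0.28 (SE 0.0623, FDR 0.00099). The G-run-binding HNRNPF rose from 566, 564, 534 and 537 CPM to 671, 688, 615 and 630 CPM, a log2 change of 0.26 (SE 0.0514, FDR 0.000379). Fitted with all 24 gradient libraries, which include the polysomal libraries of replicate 3, both calls were lost (FDR 0.0747 and 0.0833), 14 members were lower and none was higher (background 15.6% and 13.4%). With the replicate number as a block 30 members were called, 27 lower and 3 higher (background 63.3% in either direction), with HNRNPAB (0.11, FDR 0.026) added on the higher side and HNRNPA0 (-0.11, FDR 0.0301) and SRSF1 (-0.10, FDR 0.0359) on the lower side.

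In subpolysomal RNA 12 members were lower after CNOT1 siRNA and none was higher (background 14.3% lower and 11.8% higher), with a median log2 change of -0.24 against -0.04. The 12 were 6 SR proteins and 6 hnRNPs. SRSF2 fell from 646, 683, 553 and 625 CPM to 398, 386, 273 and 353 CPM, a log2 change of -0.80 (SE 0.129, FDR 0.00218). HNRNPA1 fell from 2457, 2854, 2048 and 2108 CPM to 1405, 1475, 1275 and 1165 CPM, a log2 change of -0.80 (SE 0.131, FDR 0.00241). SRSF6 fell from 998, 916, 782 and 926 CPM to 602, 528, 422 and 534 CPM, a log2 change of -0.765 (SE 0.127, FDR 0.00251). In all 3 genes the knockdown libraries lay below every control library. SRSF10 (-0.75), SRSF11 (-0.65), the export adaptor SRSF7 (-0.62), HNRNPA2B1 (-0.56), SRSF5 (-0.55), HNRNPH3 (-0.49), HNRNPH1 (-0.45), HNRNPAB (-0.44) and HNRNPA3 (-0.39) made up the rest of the 12. With the replicate number as a block 22 members were called, 18 lower and 4 higher (background 55.9% in either direction), the 4 being HNRNPD (0.32), SRSF12 (0.25), HNRNPR (0.19) and HNRNPUL1 (0.18). The lower members added were SRSF1 (-0.25), SRSF4 (-0.19), SRSF8 (-0.31), TRA2A (-0.23), TRA2B (-0.27) and HNRNPL (-0.24).

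**Figure D4:**
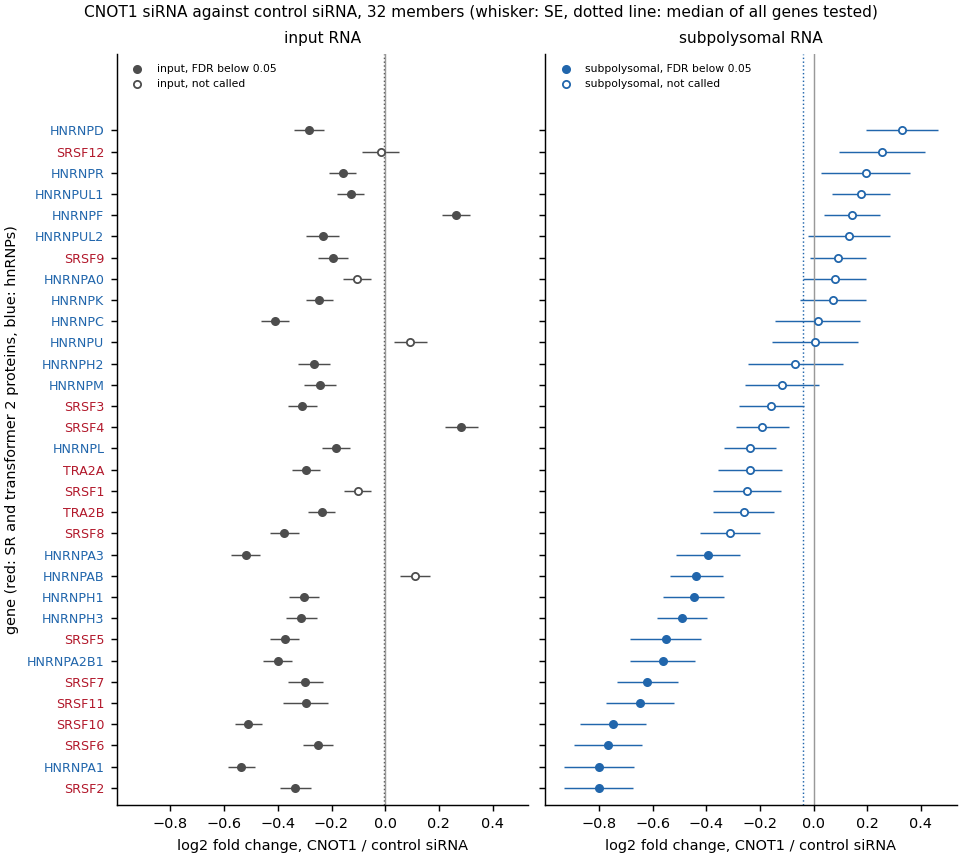
Log2 change of each member after CNOT1 siRNA against control siRNA in input and in subpolysomal RNA (horizontal axis, log2 scale; points are edgeR estimates, whiskers their SE, the dotted line the median of all genes tested). In input RNA most members lie between -0.54 and 0, and in subpolysomal RNA SRSF2, HNRNPA1 and SRSF6 reach -0.80, -0.80 and -0.765.

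In polysomal RNA, with all libraries as labelled, edgeR called no member after CNOT1 siRNA (background 0.00% in both directions), and DESeq2 called none (background 0.00%). No member had an unadjusted p below 0.05, which 60 of 16776 genes reached on the higher and 121 on the lower side. Without both libraries of replicate 3, 10 members were lower and 3 higher (background 15.9% and 19.2%). The lower ones were led by HNRNPA3 (-0.40), SRSF10 (-0.40), HNRNPC (-0.39) and HNRNPA1 (-0.38), and the higher ones were SRSF4 (0.38), HNRNPF (0.345) and HNRNPU (0.295). SRSF10 measured 305, 313, 245 and 316 CPM with control siRNA and 242, 231, 339 and 236 CPM with CNOT1 siRNA, and the value of replicate 3 lay nearest to the other group each time.

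The test of the difference between the polysomal and subpolysomal effects of CNOT1 siRNA called no member (background 0.548% higher and 0.370% lower). An unadjusted p below 0.05 was reached by 12 members and, of all 16776 genes tested, by 1462 higher and 1034 lower. The median was 0.20 against 0.05 over all genes. SRSF6 came nearest, with 0.76 (SE 0.18, FDR 0.0501): subpolysomal SRSF6 was lower after the knockdown, while polysomal SRSF6 measured 271, 306, 265 and 342 CPM with control siRNA and 278, 290, 290 and 299 CPM with CNOT1 siRNA. Its polysomal groups overlapped fully. Without both libraries of replicate 3, SRSF6 (0.71, FDR 0.0213), HNRNPAB (0.68, FDR 0.00862) and SRSF4 (0.60, FDR 0.0168) passed (background 5.47% higher and 4.01% lower). Fitted with all 24 gradient libraries 9 members passed, all higher (background 3.26% higher and 2.40% lower), and DESeq2 called SRSF6 and HNRNPAB (background 2.17% and 2.45%). Leaving out 1 library gave 0 to 2 calls, with 2 without control siRNA polysomal replicate 3, and 1 without control siRNA subpolysomal replicate 3, CNOT1 siRNA subpolysomal replicate 1 or CNOT1 siRNA polysomal replicate 3.

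**Figure D5:**
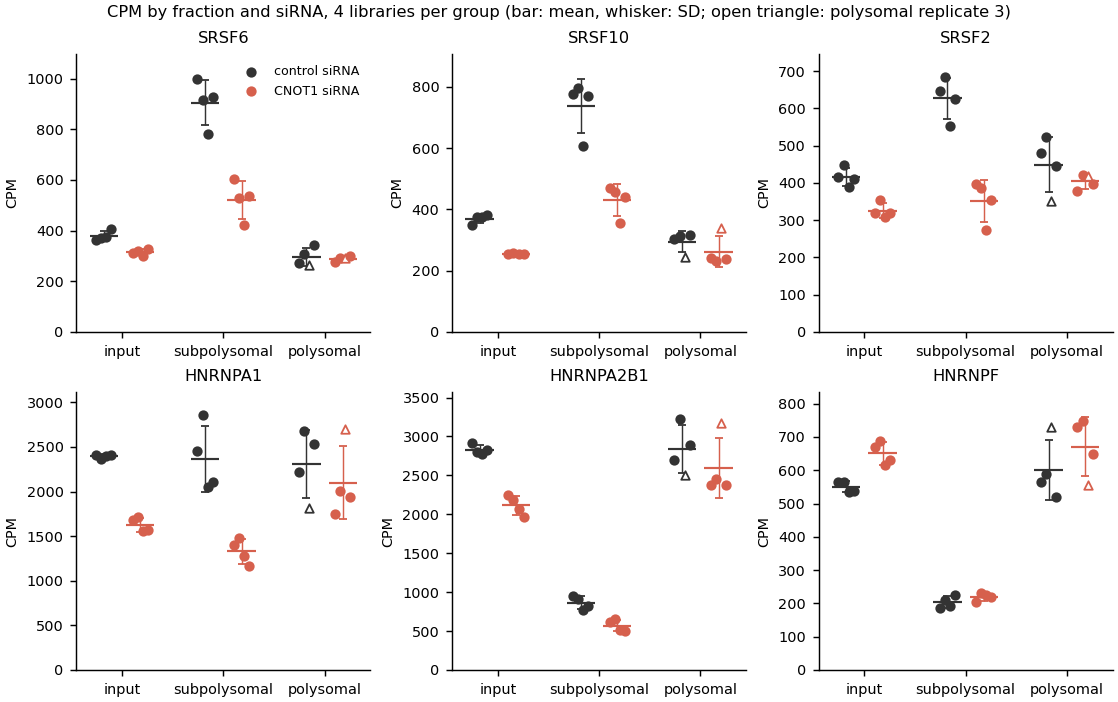
Level of 6 members in each input, subpolysomal and polysomal library of control siRNA and CNOT1 siRNA cells (vertical axis, CPM; 1 point per library, 4 per group; open triangles are the polysomal libraries labelled replicate 3). SRSF6 and SRSF10 are highest in subpolysomal RNA of control cells, at up to 998 and 795 CPM, and HNRNPA2B1 is highest in polysomal RNA.

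After TNRC6A and TNRC6B siRNA no member was called by edgeR (background 0.00% in both directions), and DESeq2 called none (background 0.0427% higher and 0.0142% lower). No member had an unadjusted p below 0.05, which 173 of 14064 genes reached on the higher and 116 on the lower side. The log2 changes ran from -0.51 for SRSF12 to 0.20 for HNRNPUL2. HNRNPA2B1 measured 2390 and 2541 CPM with control siRNA and 2171 and 2289 CPM with TNRC6A/B siRNA, groups that did not overlap. Groups of 2 also did not overlap for HNRNPC, HNRNPD, HNRNPK, SRSF9 and SRSF12 (lower) and for HNRNPA0 and HNRNPUL2 (higher). The share of all genes without overlap was not computed, so these separations describe single libraries and are no result about the members. SRSF10 measured 235 and 432 CPM against 248 and 379 CPM, so that 2 libraries of a group differed by more than the groups did.

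Genes around the members were described by 3 further lists, with no set test. Of 11 SR protein kinases and nuclear importers, 4 were above and 4 below total RNA in the eIF4A2 IP (background 24.5% and 25.8%), led by the kinases DYRK1A (1.18) and CLK2 (0.87) and, on the lower side, the importins TNPO3 (-1.13) and TNPO1 (-1.08). In control siRNA gradients 3 of the 11 were polysomal and 5 subpolysomal (background 29.3% and 34.6%), with CLK4 (-2.46) and CLK1 (-1.90) farthest on the subpolysomal side. In input RNA after CNOT1 siRNA 5 rose and 3 fell, among them DYRK1A (0.52), CLK3 (0.45) and TNPO1 (-0.57), where the background was 29.8% higher and 28.2% lower. Of 14 SR-related splicing factors, 12 were lower in the eIF4A1 IP and none higher (background 26.5% and 26.1%), and 3 were higher in the eIF4A2 than in the eIF4A1 IP (background 0.973%), led by BCLAF1 (1.49) and RBM25 (1.29). In control gradients, with the same background as above, 5 of them were polysomal and 6 subpolysomal (4 and 7 without both polysomal libraries of replicate 3), with U2AF2 (1.14), the large subunit that binds polypyrimidine tracts, at 1 end and PNN (-1.35) and SREK1 (-1.22) at the other. Of 14 further hnRNP-like genes, 8 were polysomal and 2 subpolysomal in control gradients (background 29.3% and 34.6%), from RALY (1.68) to PTBP2 (-1.36), and 7 were lower and 1 higher in the eIF4A1 IP (background 26.5% and 26.1%). The gradient counts of this list and of the kinases and importers were the same without both polysomal libraries of replicate 3.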

How the data were processed

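The authors made stranded TruSeq libraries, demultiplexed the reads with bcl2fastq 2.0, aligned them to hg19 with TopHat2 and counted them per gene with HTSeq. They deposited raw counts per gene symbol for each of 40 libraries, and these counts were used here. The strand option of the counting and the annotation version are not given in the sources used here. A further deposited table holds the authors' own comparisons (log2 fold changes, CPM means, scores, p-values and false discovery rates) and was not used.

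Counts were filtered with filterByExpr, which left 17474 genes in the RIP-Seq, 16776 in the gradient and 14064 in the TNRC6 experiment, scaled by TMM and tested with edgeR 4.0.16 quasi-likelihood fits (limma 3.58.1, R 4.3.3), with Benjamini-Hochberg adjustment over all genes tested and an FDR threshold of 0.05. RIP-Seq comparisons used 1 fit of 12 libraries, gradient comparisons the 8 libraries compared (16 for the difference between fractions) and TNRC6 its 4 libraries. DESeq2 1.42.0 was an alternative, beside RLE factors, no filter, other sets of libraries, a replicate block and leaving out each library. The fits were tested on simulated data. Sequence features came from GENCODE release 44 lifted to GRCh37. The members and lists were chosen with earlier results of these data known. Full statistics were given for up to 3 called members at each end of a comparison and library values for those and for members at an end in several comparisons. Neighbouring lists were named by up to 2 called genes a direction.

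Nothing in the labels says that libraries of a group came from separate cultures, so p-values measure the spread between these libraries. The reads carry no molecular identifiers, and depth covers counting error alone. No libraries were duplicates, with a chi-square per degree of freedom of at least 5.49 between any 2 libraries of a group. Replicate numbers came from the sample titles. For 1 total RNA library the description gives another number than the title, and the title was used. Deviations of same-numbered libraries correlated above 0.1 in every pair of the RIP-Seq comparisons (0.184 to 0.782), CNOT1 siRNA in input (0.195 to 0.358) and in subpolysomal RNA (0.586 to 0.736). Blocked calls therefore stand beside those results where calls changed.

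Some members share sequence with other genes. HNRNPUL2 and HNRNPH2 share 44.3% and 15.8% of their exons with readthrough genes on the same strand. On the opposite strand NFE2L2 covers 53.7% of HNRNPA3, MFSD11 27.7% of SRSF2 and COX20 15.6% of HNRNPU. Symbols of 75 HNRNPA1 pseudogenes held a median of 0.661% of the counts of HNRNPA1.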

Additional observations from a re-analysis of the deposited data

Results flagged for a closer look

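In each group of 4 libraries, the highest or lowest value was compared with the others by Dixon's ratio. Of 192 groups (32 members in 6 groups) 16 held a library past the 95% limit, where chance gives about 1 in 20.

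CNOT1 siRNA polysomal replicate 3, the library whose CNOT1 level went against its label, stood above its group for 7 members: SRSF10 at 339.1 CPM, SRSF11 at 368.8 CPM, HNRNPA2B1 at 3168 CPM, HNRNPA3 at 1489 CPM, HNRNPH1 at 687.8 CPM, HNRNPH2 at 230.5 CPM and HNRNPR at 729.7 CPM. Control siRNA polysomal replicate 3, the other such library, stood below its group for SRSF10 at 245.0 CPM and SRSF12 at 16.71 CPM. The calls with and without these libraries stand in the report.

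In input RNA with control siRNA, SRSF4 stood high in replicate 2 at 232.4 CPM and SRSF11 low in replicate 1 at 289.8 CPM. In subpolysomal RNA with control siRNA, SRSF5 stood high in replicate 1 at 510.3 CPM, SRSF10 low in replicate 3 at 606.1 CPM and HNRNPUL2 low in replicate 4 at 15.08 CPM. With CNOT1 siRNA, HNRNPK stood high in subpolysomal replicate 2 at 386.0 CPM and SRSF9 low in polysomal replicate 1 at 270.8 CPM.

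The effect against total RNA differed between the eIF4A2 and DDX6 IPs for 3 members by edgeR's test of the difference itself: SRSF5 (log2 difference 0.8285), HNRNPA1 (-0.5611) and HNRNPR (-0.41). Of all genes tested, 9.82% were called higher and 11.3% lower in that comparison. The calls of HNRNPA1 and HNRNPR were lost without some single libraries. SRSF5 was higher in 3 of 3 eIF4A2 IP libraries than in every DDX6 IP library, and HNRNPA1 and HNRNPR were lower.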

How the results depend on the processing

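Of 164 recomputed counts of called members 146 stayed within 1.5 times the reported count and 18 did not, and of 470 recomputed values of single members 444 kept their call, 26 lost it and none changed direction. The replicate block gave 4 calls between the eIF4A2 and eIF4A1 IPs, 11 between the eIF4A2 and DDX6 IPs, 2 between the DDX6 and eIF4A1 IPs and 22 in subpolysomal RNA after CNOT1 siRNA. DESeq2 gave 2, 8 and 2 calls in those IP comparisons and 2 for the difference between fractions. The fit of all 24 gradient libraries gave 14 calls in input RNA and 9 for the difference between fractions. Without both polysomal libraries of replicate 3 there were 13 calls in polysomal RNA and 3 for that difference. The cause of these differences was not tested. Leaving out 1 library at a time gave 22 to 23 calls in the eIF4A1 IP, 19 to 22 in the eIF4A2 IP and 20 to 22 in the DDX6 IP against total RNA, 1 to 4 between the eIF4A2 and DDX6 IPs, 26 to 28 on each gradient, 25 to 28 in input, 9 to 12 in subpolysomal RNA and 0 to 2 for the difference between fractions. It gave none in the comparisons of the eIF4A1 IP with the eIF4A2 or DDX6 IP, in polysomal RNA and after TNRC6A/B siRNA. Same-numbered libraries did not deviate together between polysomal and subpolysomal RNA or in polysomal RNA after CNOT1 siRNA, where replicate 3 gave a correlation of -0.562. With 2 pairs, the TNRC6 numbers (correlation 0.862) could not settle a pairing. The block gave 0 calls of members there and in polysomal RNA, although TNRC6A (-1.84, FDR 1.06e-24) and TNRC6B (-1.70, FDR 5.21e-19) passed with it, and it changed no other count by over 1.5 times. Lost calls of SRSF9, SRSF8, SRSF5, HNRNPA1, HNRNPR, SRSF4, HNRNPF and HNRNPH1 stand beside their values in the report. Counting precision was lowest for SRSF12 and HNRNPUL2, the members with the lowest levels.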
